A study of Rattus norvegicus with 7 samples.

Results

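The proteasome genes on the array were followed through 72 hours of cyclic stretch in cultured fetal rat spinal cord cells. They were taken as the genes with a probe set (the set of oligonucleotides that reads 1 transcript) whose only annotated symbol began with Psma, Psmb, Psmc, Psmd or Psme. Each gene was read from its probe set of highest mean signal, with a mean of at least 100 over the arrays. There were 41 such genes among 14217 genes named by a single symbol, and 0 genes with such a symbol lay under the limit of 100. Of the 41, 39 encode subunits, assembly chaperones or activators of the proteasome. The others, Psmc3ip, a factor of meiotic recombination, and Psme3ip1, a partner protein of the activator subunit PSME3, share the prefix without being part of the particle. Mean signals of the members ran from 238 to 7210, but brightness differs between probe sets and was not compared between genes.

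The cells were dissociated spinal cord of day 15 Sprague-Dawley embryos, freed of dorsal root ganglia and meninges, and grew for 3 days on a flexible well bottom coated with type IV collagen. All later cultures were then stretched cyclically, by 10% strain at a frequency of 0.5 Hz, for between 2 and 72 hours, and the 0 hour culture was collected before any strain. RNA of 5 animals was pooled for each time and hybridised to 1 Affymetrix Rat 230 2.0 array, giving 7 arrays in all, at 0, 2, 6 and 12 hours and then at 24, 48 and 72 hours. The strain in such a well is not uniform, and no unloaded culture of a later time was analysed here, so time under strain and time in culture cannot be told apart. Since the RNA was bulk RNA of a mixed culture, fewer cells of a type and less RNA per cell cannot be told apart either. The deposited signals were scaled by the authors to one trimmed mean (500.1 to 500.2 on the 7 arrays). The ratio of the 3' to the 5' actin control, a sign of RNA quality, was 1.82 at 0 hours and between 1.53 and 2.2 from 2 to 24 hours. It was 2.54 and 2.62 at 48 and 72 hours. The same ratio of the GAPDH control moved less, from 1.09 at 0 hours to 1.17 and 1.16 at 48 and 72 hours.

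The proteasome is the main protease for ubiquitin-tagged proteins in the cytosol and nucleus. Its barrel-shaped core has outer rings of alpha subunits (Psma genes), which form the gate, and inner rings of beta subunits (Psmb genes), which hold the catalytic sites. A regulatory particle of a base with a ring of ATPases (Psmc genes) and a lid (most Psmd genes) binds ubiquitin chains, removes them and unfolds the substrate. Interferon induces an alternative set of catalytic subunits, Psmb8, Psmb9 and Psmb10, which replace Psmb5, Psmb6 and Psmb7 to form the immunoproteasome, together with PA28, a ring-shaped activator built from Psme1 and Psme2. In the central nervous system microglia are a known source of immunoproteasome, whose peptides are loaded on MHC class I molecules.

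Most of the proteasome genes moved little, and the few that passed the test below moved in different directions. The change with time was tested as a line of log2(signal + 32) on hours, fitted with limma across the 17709 probe sets whose signal averaged 100 or more and called at a Benjamini-Hochberg adjusted p under 0.05. The fitted change given below is the change along this line from 0 to 72 hours, on the log2 scale. Of the 41 proteasome genes, 2 rose, against 15.0% of all probe sets tested, 7 fell, against 14.1%, and 32 did not pass. Psmd5 and Psmd10 rose, and Psma7, Psmb8, Psmb9, Psmb10, Psmc3, Psme1 and Psme2 fell. Without the 72 hour array only Psmd10 remained among those that rose, and Psma7, Psmb9, Psmb10 and Psme2 among those that fell, while over all probe sets 7.43% rose and 7.21% fell. By the size threshold stated in the study's methods, a change from 0 hours by a ratio of 2 or more in either direction together with a difference in signal of 200 or more, 0 members passed at 2, 6, 12, 24 or 48 hours. At 72 hours Psmd5 and Psmd10 were higher by this rule, which 4.50% of all probe sets met, and Psmb9 and Psmb10 were lower, a direction in which 6.16% of all probe sets met it. The number of arrays, 1 at each time, limits the precision, and the errors given are those around the line and not between replicate cultures.

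**Figure D1:**
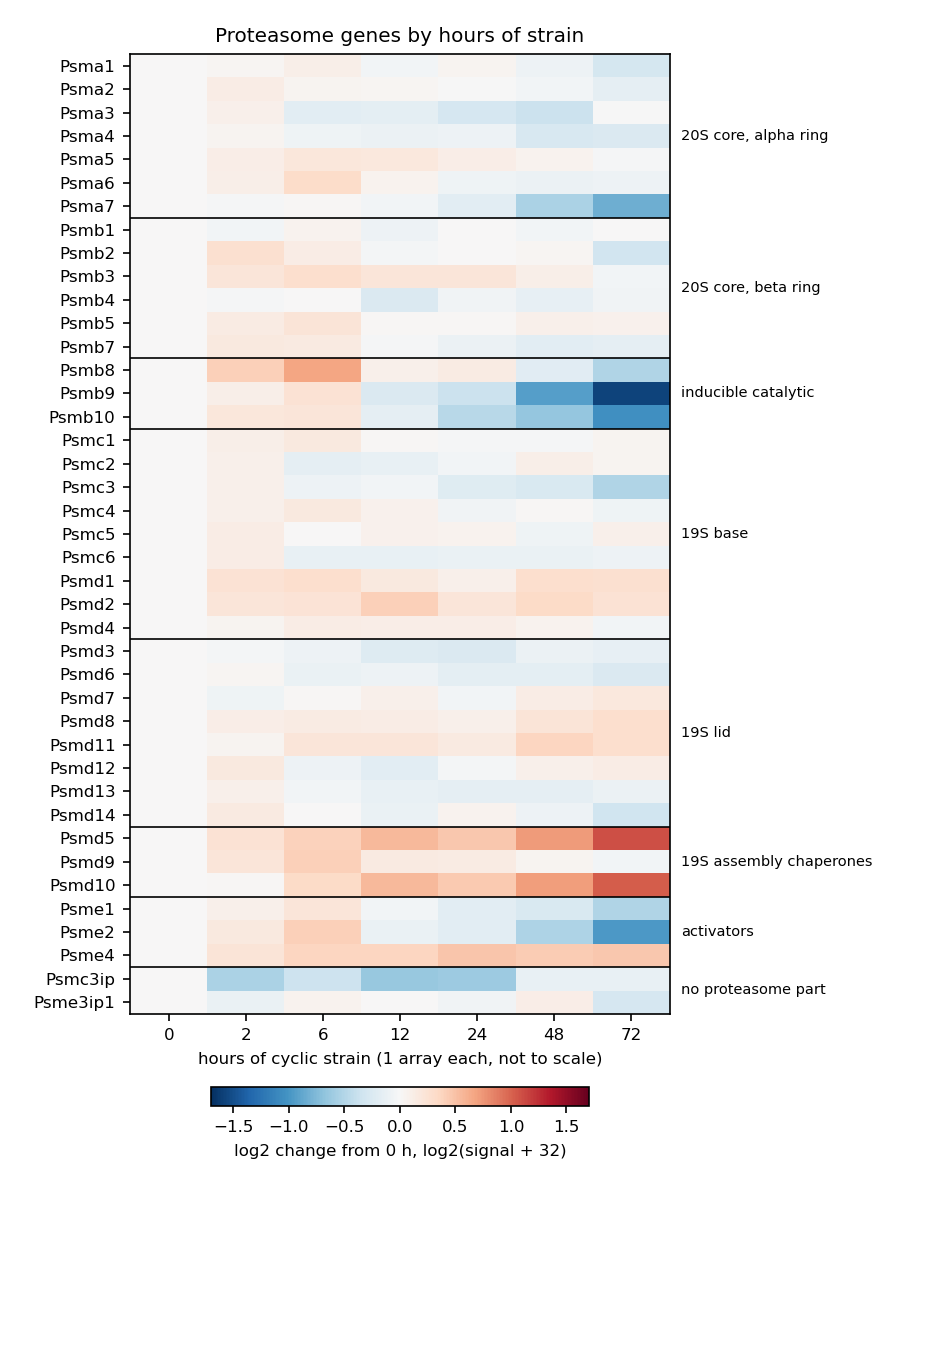
Change from the 0 hour array, as a difference of log2(signal + 32), for each of the 41 proteasome genes (rows, grouped by their place in the particle) at the 7 time points (columns, 1 array each, not drawn to scale). The rows of the core, base and lid stay pale except Psma7 and Psmc3, while Psmb8, Psmb9, Psmb10, Psme1 and Psme2 turn blue by 72 hours and Psmd5 and Psmd10 turn red.

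The interferon-inducible catalytic subunits were the members with the largest fitted decreases as a group, with 3 of 3 past the test, where 14.1% of all probe sets fell. Psmb9, which takes the place of Psmb6, had signals of 1001, 1074, 1192, 838, 769, 506 and 313 in order of time from 0 to 72 hours, a fitted change of -1.69 (SE 0.16, limma adjusted p = 0.000243). Its signal was highest at 6 hours and lower at each later time, ending at 0.313 of the 0 hour signal. Psmb10, which takes the place of Psmb7, gave 727, 831, 846, 650.0, 517, 448 and 337 in the same order, a fitted change of -1.19 (SE 0.17, limma adjusted p = 0.00124). It too was highest at 6 hours and lower than at 0 hours from 12 hours on. Psmb8, which takes the place of Psmb5, read 1396, 1859, 2240, 1479, 1543, 1223 and 972, a fitted change of -0.82 (SE 0.22, limma adjusted p = 0.0185). At 6 hours it stood at 1.61 times its 0 hour signal, the highest 6 hour ratio among the members, and it was under the 0 hour signal at 48 and 72 hours alone. Its call was lost without the 2, 48 or 72 hour array (adjusted p = 0.0536, 0.0501 and 0.206).

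Both subunits of the PA28 activator followed the same course. Psme2, the beta subunit, had signals of 2725, 3058, 3637, 2521, 2406, 1887 and 1368 from 0 to 72 hours, a fitted change of -1.14 (SE 0.17, limma adjusted p = 0.00144). Its 72 hour signal was 0.502 of that at 0 hours, just short of the size threshold. Psme1, the alpha subunit, gave 5009, 5288, 5793, 4821, 4426, 4189 and 3516, a fitted change of -0.58 (SE 0.12, limma adjusted p = 0.00645). Its call was lost without the 72 hour array (adjusted p = 0.101). Pearson's r of the log2 signals between any pair among Psmb8, Psmb9, Psmb10, Psme1 and Psme2 was 0.89 to 0.99 over the 7 arrays, which all pairs share.

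**Figure D2:**
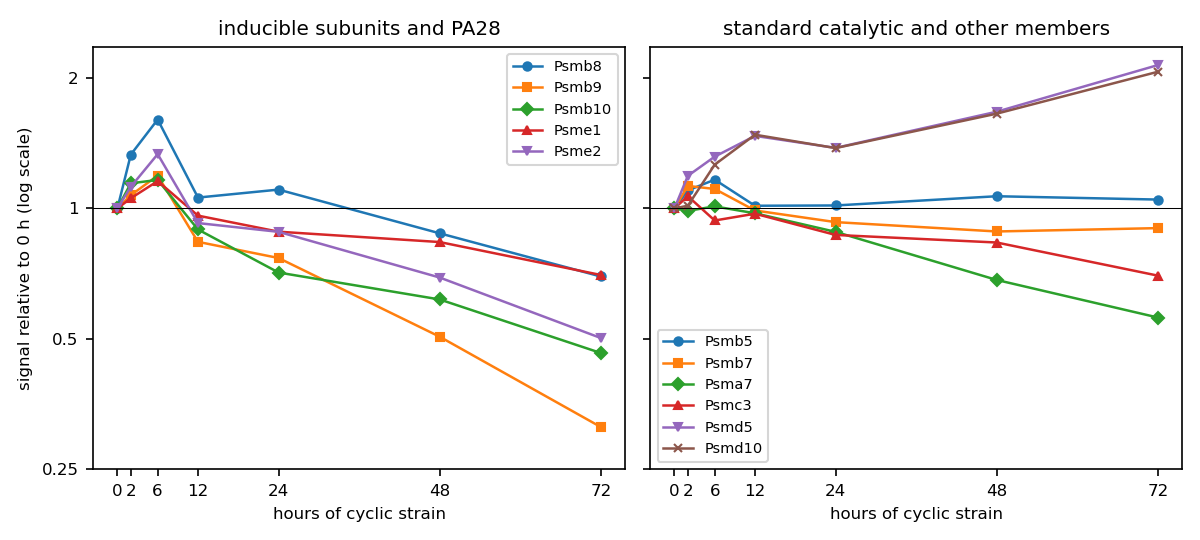
Signal relative to the 0 hour array, on a log scale, against hours of strain, with 1 array for each point and no error bars. On the left the inducible subunits and PA28 are highest at 6 hours, where Psmb8 reaches 1.61, and Psmb9 ends at 0.313, while on the right Psmb5 and Psmb7 end at 1.05 and 0.901 and Psmd5 and Psmd10 end at 2.14 and 2.07.

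The promoters of these genes are shown because the 5 of them moved together on the arrays. In RefSeq's annotation of the rat assembly GRCr8, Psmb8 and Psmb9 alternate with the peptide transporter genes Tap2 and Tap1 on chromosome 20, Psme1 and Psme2 lie with Emc9 between them on chromosome 15, near Irf9, and Psmb10 is on chromosome 19. The windows hold the 250 bases before the annotated start (RefSeq, GRCr8, 5' to 3' on the gene's strand) at chr20:4657032-4657281 (minus strand, Psmb8), chr20:4668750-4668999 (plus strand, Psmb9), chr19:50743293-50743542 (minus strand, Psmb10), chr15:33038721-33038970 (plus strand, Psme1) and chr15:33052752-33053001 (minus strand, Psme2). Capitals mark every match, on either strand, to 5 motifs: the CCAAT box (CCAAT), the core of the antioxidant response element (TGACNNNGC), a heat shock element core (GAANNTTC), the gamma-activated site (TTCNNNGAA) and a core of the interferon-stimulated response element (GAAANNGAA).
Psmb8: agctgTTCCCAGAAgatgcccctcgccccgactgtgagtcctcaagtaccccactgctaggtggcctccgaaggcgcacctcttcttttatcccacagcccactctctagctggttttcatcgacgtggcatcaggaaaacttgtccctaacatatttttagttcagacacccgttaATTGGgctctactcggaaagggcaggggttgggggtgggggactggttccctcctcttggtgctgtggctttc
Psmb9: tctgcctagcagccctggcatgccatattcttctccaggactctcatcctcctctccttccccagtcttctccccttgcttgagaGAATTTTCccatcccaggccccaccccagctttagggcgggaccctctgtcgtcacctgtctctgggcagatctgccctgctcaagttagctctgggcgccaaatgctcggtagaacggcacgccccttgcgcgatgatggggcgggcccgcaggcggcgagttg
Psmb10: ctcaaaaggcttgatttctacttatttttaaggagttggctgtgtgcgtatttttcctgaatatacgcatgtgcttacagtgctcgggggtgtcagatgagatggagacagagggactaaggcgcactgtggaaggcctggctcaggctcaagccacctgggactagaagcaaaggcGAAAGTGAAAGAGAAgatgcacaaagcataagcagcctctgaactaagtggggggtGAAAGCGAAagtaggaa
Psme1: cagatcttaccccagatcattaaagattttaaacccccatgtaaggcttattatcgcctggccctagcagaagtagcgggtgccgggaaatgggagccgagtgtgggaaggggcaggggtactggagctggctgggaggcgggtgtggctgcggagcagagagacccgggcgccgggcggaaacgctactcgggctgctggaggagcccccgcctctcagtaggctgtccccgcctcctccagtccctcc
Psme2: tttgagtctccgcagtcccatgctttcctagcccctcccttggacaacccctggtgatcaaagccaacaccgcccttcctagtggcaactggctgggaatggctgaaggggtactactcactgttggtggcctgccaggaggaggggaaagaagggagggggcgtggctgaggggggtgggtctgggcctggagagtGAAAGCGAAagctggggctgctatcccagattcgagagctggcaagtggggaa

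Psmb10 held 3 matches to GAAANNGAA, with first bases 73, 67 and 17 bases before the start, the match at 67 overlapping that at 73. Psme2 held 1 such match, 53 bases before its start. Psmb8 held a CCAAT box on the opposite strand and TTCCCAGAA, Psmb9 held GAATTTTC, and the Psme1 window held none of the 5 motifs. Windows were found for 37 of the 41 members, all but Psma7, Psmd6, Psmd12 and Psmd14. GAAANNGAA was present in 7 of the 37 (Psma4, Psmb2, Psmb3, Psmb10, Psmd7, Psmd11 and Psme2), or 18.9%, against 7.99% of 27457 windows of all genes. Among the subunits of the core, base and lid it was present in 5 of 26, or 19.2%. The CCAAT box was present in 53.8% of the core, base and lid windows and 34.3% of all windows, and TGACNNNGC in 15.4% and 10.2%. A match is a description of the letters and not a binding site.

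Of the standard catalytic subunits, Psmb5 and Psmb7 were tested and did not pass. Psmb6 had no probe set of a single symbol and was not tested. Psmb5, which carries the chymotrypsin-like activity, had signals of 4598, 5061, 5358, 4664, 4671, 4906 and 4820 from 0 to 72 hours, a fitted change of -0.02 (SE 0.12, limma adjusted p = 0.902). Psmb7, which carries the trypsin-like activity, gave 4144, 4671, 4596, 4099, 3853, 3666 and 3732, a fitted change of -0.29 (SE 0.12, limma adjusted p = 0.0953). Each of these was highest at 2 or 6 hours and within the range 0.885 to 1.17 of its 0 hour signal throughout.

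The inducible subunit was therefore set against the standard subunit it replaces, array by array, for the 2 pairs in which both were measured by a probe set of a single symbol. Relative to 0 hours, the ratio of Psmb10 to Psmb7 was 1.01, 1.04, 0.909, 0.778, 0.715 and 0.54 on the arrays from 2 to 72 hours. Its fitted change was -0.90 on the log2 scale, with Pearson's r of -0.98 against hours (exact permutation of the 7 arrays, 2-sided, p = 0.00119, adjusted over the 2 pairs 0.00238) and Spearman's rho of -0.86 (exact p = 0.0238, adjusted 0.0476). Without the 12, 24, 48 or 72 hour array alone the adjusted exact p of rho was 0.206, while that of r was at most 0.0167 with any single array left out. Without both the 48 and 72 hour arrays r was -0.94 (exact permutation p = 0.05, adjusted 0.1) and rho -0.60 (adjusted exact p = 0.7) over 5 arrays. The ratio of Psmb8 to Psmb5 was 1.2, 1.37, 1.04, 1.09, 0.824 and 0.671 at the same times, a fitted change of -0.80 with r of -0.88 (exact permutation p = 0.0103, adjusted 0.0103) but rho of -0.57 (exact p = 0.2, adjusted 0.2). Without the 48 and 72 hour arrays its r was -0.15, so the relation rests on these arrays, and leaving out the 48 or the 72 hour array alone gave an adjusted exact permutation p of 0.0722 or 0.121.

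Of the 13 standard core subunits tested, which leave out Psmb6, Psma7 alone passed. By the limma test 0 rose and 1 fell, beside 15.0% and 14.1% of all probe sets. At an unadjusted p under 0.05 there were 0 up and 5 down (Psma7, Psma1, Psma4, Psmb2 and Psmb7). The median change of the 13 was 0.10 at 2 and at 6 hours and -0.08 at 72 hours, beside 0.00 at 72 hours over all probe sets tested. Psma7, an alpha-ring subunit, had signals of 4355, 4299, 4403, 4244, 3845, 2977 and 2438, a fitted change of -0.87 (SE 0.11, limma adjusted p = 0.000673). Its signal was level to 12 hours and lower from 24 hours on, to 0.56 of the 0 hour signal at 72 hours. The other alpha subunits had fitted changes of -0.30 (Psma1, adjusted p = 0.0666) to -0.11 (Psma3, adjusted p = 0.673). The 6 beta subunits tested ran from -0.37 (Psmb2, adjusted p = 0.0672) to 0.00 (Psmb1, adjusted p = 0.977), and the signal of Psmb1 stayed between 4890 and 5449 on all arrays.

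In the regulatory particle, 17 base and lid subunits named Psmc or Psmd were tested. By the limma test 0 of these rose and 1 fell, beside 15.0% and 14.1% of all probe sets. At an unadjusted p under 0.05 there were 0 up and 2 down (Psmc3 and Psmd14). The one that fell was Psmc3, an ATPase of the base, with signals of 3764, 4017, 3530, 3660, 3269, 3140 and 2633 and a fitted change of -0.51 (SE 0.11, limma adjusted p = 0.00793). It was highest at 2 hours and lowest at 72 hours, and its call was lost without the 72 hour array (adjusted p = 0.126). The other ATPases had fitted changes of -0.14 (Psmc4, adjusted p = 0.399) to 0.11 (Psmc2, adjusted p = 0.522). The scaffold subunits of the base, Psmd1 and Psmd2, had fitted changes of 0.13 (adjusted p = 0.53) and 0.12 (adjusted p = 0.534), and the ubiquitin receptor Psmd4 of -0.08 (adjusted p = 0.627). In the lid, Psmd14, which cuts off ubiquitin chains, had a fitted change of -0.34 (adjusted p = 0.0632) and Psmd11, a scaffold subunit, of 0.25 (adjusted p = 0.146). The median change of these 17 at 72 hours was 0.04, and -0.01 against the mean of the 0 and 2 hour arrays. Adrm1 of the base and Sem1 of the lid have other symbols and are not among the 17. Their values are given below with the genes of assembly and regulation.

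Across the 30 members of the core, base and lid, the highest signal over the 7 arrays was a median of 1.22 times the lowest, with a range of 1.11 to 1.81. The same median was 1.65 over all probe sets tested and 1.45 over the 5140 whose signal averaged 1000 or more. The adjusted p of the 28 that did not pass lay between 0.0632 and 0.977. A p above the threshold does not show that a subunit was constant, and the spread around the line was a median residual SD of 0.18 on the log2 scale over all probe sets.

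**Figure D3:**
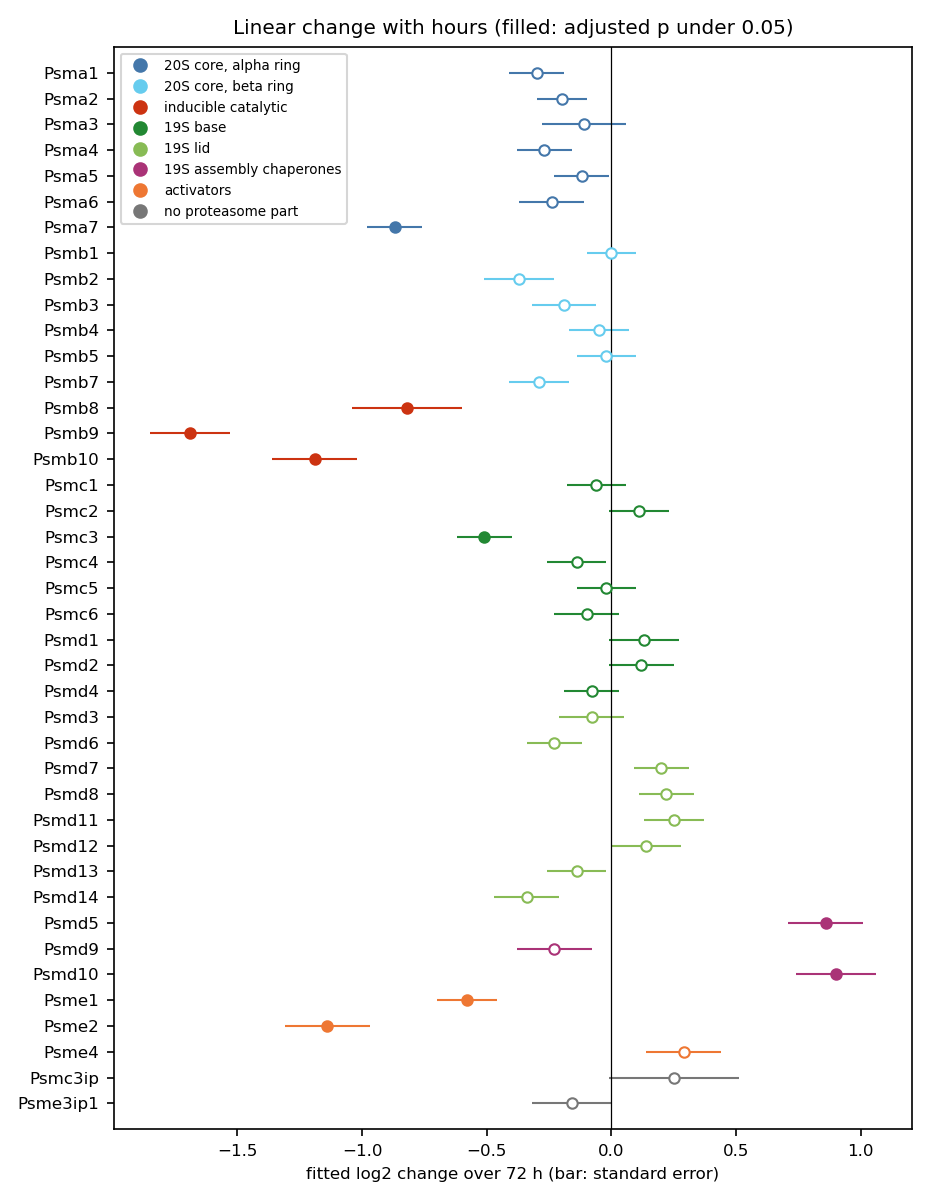
Fitted log2 change over 72 hours (points) with its standard error (bars) for the 41 proteasome genes, coloured by group, with filled points for those past the limma test. The filled points are Psma7, Psmb8, Psmb9, Psmb10, Psmc3, Psme1 and Psme2 below 0, from -1.69 to -0.51, and Psmd5 and Psmd10 above 0, at 0.86 and 0.90.

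Among the 3 members that are chaperones of base assembly and not part of the finished particle, 2 rose, beside 15.0% of all probe sets. Psmd10, also known as gankyrin, had signals of 1300, 1319, 1641, 1924, 1792, 2152 and 2689 from 0 to 72 hours, a fitted change of 0.90 (SE 0.16, limma adjusted p = 0.00318). Psmd5 gave 1759, 2092, 2317, 2587, 2427, 2942 and 3770, a fitted change of 0.86 (SE 0.15, limma adjusted p = 0.00276). Both were above their 0 hour signal on each of the 6 later arrays, were a little lower at 24 than at 12 hours, and were highest at 72 hours, at 2.07 and 2.14 times the 0 hour signal. The call of Psmd5 was lost without the 72 hour array (adjusted p = 0.0563), and against the mean of the 0 and 2 hour arrays only Psmd10 met the size threshold. The third chaperone, Psmd9, read 994, 1145, 1320, 1109, 1099, 1025 and 959.6, highest at 6 hours, with a fitted change of -0.23 (adjusted p = 0.284).

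Psme4, which encodes the activator PA200, had signals of 2083, 2431, 2695, 2693, 2897, 2813 and 2874, a fitted change of 0.29 (SE 0.15, limma adjusted p = 0.165). All 6 later arrays were above the 0 hour array, and Psme4 was called as rising with time as log2(hours + 1) or as rank. A second probe set of the gene had a fitted change of 0.18 and the third, of lower signal, one of -0.43, so the probe sets of Psme4 disagree. Psmc3ip and Psme3ip1 had fitted changes of 0.25 (adjusted p = 0.51) and -0.16 (adjusted p = 0.471). Further probe sets existed for 9 members. Of the 14, 6 were under a mean signal of 100, 6 of the 8 tested had the same direction as the first, and the exceptions were that of Psme4 and one of Psmd7 (-0.06 against 0.20). One further probe set of Psmd14 fell (-0.54, SE 0.14, limma adjusted p = 0.0174). RefSeq lists pseudogenes or copies named after 16 of the 41 members, Psma7, Psme1 and Psme2 among them, and a probe set can bind transcripts of such copies.

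An early maximum was common among the members. The highest of the 7 signals fell at 2 or 6 hours in 24 of the 30 members of the core, base and lid, or 80%, against 25.3% of all probe sets tested. These 30 were bright, with mean signals of 1223 to 7210, and no share was taken over probe sets of like brightness. The median signal of the arrays was 162 at 0 hours and 146 and 145 at 2 and 6 hours. The part of brightness and scaling in the early maximum was not tested. At 2 hours 34 of the 41 members were above the 0 hour array, with a median change of 0.10, and at 6 hours 31 were, with a median of 0.13, beside 48.4% and 46.4% of all probe sets. The medians over all probe sets were -0.01 and -0.04. Single changes of this size are within the spread around the line, and no test was made of them. When the arrays were scaled to a common median signal, which raised the 2 and 6 hour arrays by 0.15 and 0.17 on the log2 scale relative to 0 hours, 40 and 39 members were above 0 hours, beside 68.3% and 62.3% of all probe sets. At 72 hours 13 members were above 0 hours as deposited and 21 with a common median, beside 49.7% and 55.1% of all probe sets. The members' median change turned from -0.07 to 0.01, so the sign of that median depends on the scaling. Over all probe sets the median turned from 0.00 to 0.06, and was above that of the members under both scalings.

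The list of genes that assemble or regulate the proteasome had 16 measured members. Of these 2 rose and 4 fell, beside 15.0% and 14.1% of all probe sets, with a median change of 0.01 at 72 hours. Psmg4, a chaperone of alpha-ring assembly, fell by 0.86 (SE 0.15, limma adjusted p = 0.00259), from a signal of 1389 at 0 hours to 725 at 72 hours. Pomp, which guides maturation of the core, fell by 0.60 (SE 0.13, limma adjusted p = 0.00692), from 7111 to 5167. Ddi2, the protease that activates the transcription factor Nfe2l1, rose by 0.52 (SE 0.15, limma adjusted p = 0.0289), and Adrm1, a ubiquitin receptor, rose by 0.47 (SE 0.15, limma adjusted p = 0.0428). Sem1 fell by 0.46 (SE 0.13, limma adjusted p = 0.0215). Nfe2l1 itself, which drives proteasome genes when the proteasome is inhibited, had a fitted change of 0.25 (adjusted p = 0.298). Of 10 measured genes of ubiquitin activation and substrate delivery 0 rose and 0 fell by the limma test, beside the same 15.0% and 14.1% of all probe sets. At an unadjusted p under 0.05 there were 3 up and 0 down, and the median change was 0.15 at 72 hours. In that list Vcp, the segregase that pulls proteins out of complexes, had a fitted change of 0.01 (adjusted p = 0.946) and Sqstm1, a receptor of ubiquitin-tagged cargo, of 0.36 (adjusted p = 0.105).

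The next steps of antigen presentation were compared with the inducible subunits. Of 8 measured genes of MHC class I loading, 0 rose by the limma test, also 0 at an unadjusted p under 0.05, and 3 fell. Over all probe sets 15.0% rose and 14.1% fell by this test. The median change of the 8 genes was -0.20 at 72 hours. Erap1, which trims peptides in the endoplasmic reticulum, fell by 0.71 (SE 0.14, limma adjusted p = 0.00474), and the folding factors Pdia3 and Calr fell by 0.54 (SE 0.12, limma adjusted p = 0.00745) and 0.43 (SE 0.10, limma adjusted p = 0.00989). Tap1 and Tap2, the chromosomal neighbours of Psmb8 and Psmb9, had fitted changes of -0.32 (adjusted p = 0.192) and -0.34 (adjusted p = 0.19). Tap1 read 488, 514, 599, 566, 594, 437 and 435, so its signal at 24 hours was still above that at 0 hours, when Psmb9 was at 0.768 of its own. B2m, the light chain of class I molecules, had a fitted change of 0.02 (adjusted p = 0.938).

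Many interferon-induced genes and microglial markers also fell. Of 15 interferon-induced genes measured and 13 tested, 1 rose and 8 fell, with a median change of -0.44 at 72 hours. Over all probe sets 15.0% rose and 14.1% fell. Irf7, a transcription factor of the interferon response, read 960.1, 1278, 1379, 861, 804, 554 and 366, and fell by 1.61 (SE 0.21, limma adjusted p = 0.000929). Its signal, like those of Psmb9 and Psmb10, was highest at 6 hours and below the 0 hour signal from 12 hours on. Irf9, Stat2 and Usp18 were also highest at 6 hours. Gbp2, Ifit2, Ifit3, Isg15, Mx1, Mx2, Ifitm3 and Rsad2 were highest at 2 hours instead, and Irf1 at 0 hours. The summed signal of the list was 1.18 of its 0 hour value at 2 hours and 1.12 at 6 hours, so the course of Irf7 is not that of the list. Mx1, an antiviral protein, fell by 1.56 (SE 0.30, limma adjusted p = 0.00489), while Cxcl10, a chemokine, rose by 1.48 (SE 0.28, limma adjusted p = 0.00397). Of 8 markers of microglia and macrophages, 7 were tested and 5 fell: Aif1, C1qa, C1qb, C1qc and Cd68. Csf1r and Ptprc did not pass, with fitted changes of -0.06 (adjusted p = 0.875) and -0.32 (adjusted p = 0.258), and Cx3cr1, with a mean signal of 61.5, was not tested.

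The summed signal of the 3 inducible subunits was 3123 at 0 hours and, relative to it, 1.21, 1.37, 0.95, 0.906, 0.697 and 0.52 on the arrays from 2 to 72 hours. That of the 8 microglial markers was 35276 at 0 hours and 1.1, 1.26, 0.939, 1.03, 0.784 and 0.525 of it at the same times. Both sums were highest at 6 hours and lowest at 72 hours. The microglial sum is weighted by the bright probe sets of Cd68, Csf1r and Ptprc, and its members differed: Aif1, C1qa, C1qb and C1qc were at 0.183, 0.187, 0.255 and 0.175 of their 0 hour signals at 72 hours, Cd68, Csf1r and Ptprc at 0.663, 0.95 and 0.784. The median change of the 7 tested markers at 72 hours was -1.93 on the log2 scale, beside -1.04 for the inducible subunits, and C1qa, C1qb and C1qc were already at 0.408, 0.479 and 0.385 at 12 hours. The sum of the interferon-induced genes stood at 1.18 at 2 hours and 0.756 at 72 hours. It is weighted by the bright Ifitm3, at 0.771 at 72 hours, and its single genes ended between 0.336 (Mx2) and 3.41 (Cxcl10) of their 0 hour signals. The sum of MHC class I loading stood at 1.04 at 2 hours and 0.901 at 72 hours. That sum is weighted by the bright B2m, and its single genes ended between 0.703 (Erap1) and 1.07 (B2m) of their 0 hour signals. Neuronal markers took another course, at 0.602 at 2 hours and 0.277 at 72 hours. The part of the microglial markers, of the interferon-induced genes and of the actin 3' to 5' ratio in the fall of the inducible subunits and PA28 was not tested.

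**Figure D4:**
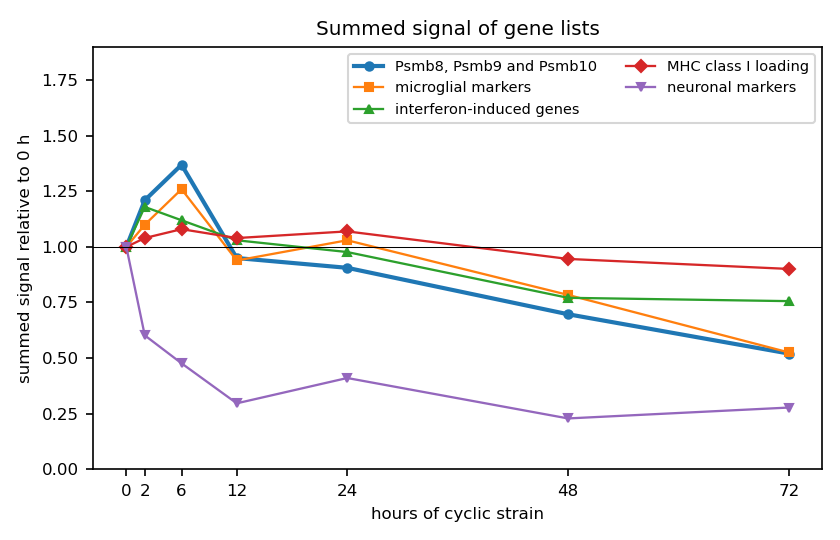
Summed signal of gene lists relative to the 0 hour array against hours of strain, 1 array for each point. The inducible subunits and the microglial markers end at 0.52 and 0.525 at 72 hours after a maximum at 6 hours (single microglial markers end between 0.175 and 0.95). The sum of the MHC class I loading genes, in which B2m is the brightest, stays between 0.901 and 1.08 (single genes end between 0.703 and 1.07). The sum of the interferon-induced genes, in which Ifitm3 is the brightest, ends at 0.756 (single genes end between 0.336 and 3.41). The neuronal markers are at 0.602 by 2 hours.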

How the data were processed

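Signal intensities of 7 arrays, 1 for each time and each from the pooled RNA of 5 animals, were taken from the values the authors deposited. Per the labels and the study's methods, the authors computed these intensity values with MAS5.0 in GCOS and scaled each array to one trimmed mean, so they are linear, background-subtracted and least reliable near the floor. Of the probe sets, 31042 were not controls, and 17709 with a mean signal of at least 100 were tested with limma 3.58.1 in R 4.3.3 (lmFit and eBayes, trend = TRUE) as log2(signal + 32) against hours. This left 5 residual degrees of freedom, and p-values were adjusted by Benjamini-Hochberg. The fit was also run on simulated data with independent errors around the mean of each probe set. Such data lack shifts shared by an array or by neighbouring times, so the run cannot show how many calls here are false. The methods' rule of size (ratio 2, difference 200) is a threshold and not a test. A gene was read from its probe set of highest mean signal among those with 1 symbol in the platform annotation. Psmb6 and Psme3 share their probe sets with other symbols and were not used, so that 2 of the 3 catalytic pairs could be compared. Promoters came from RefSeq (GRCr8). Exact permutation tests ran over all 5040 orders of the 7 arrays (Python 3.11.15, numpy 2.4.6).

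Signals at every time were given for the inducible and standard catalytic subunits, PA28, and the called members of largest change, up to 4 in each direction, and from each pathway list up to 4 called genes of largest change were named. Psmc3, Psmd9, Psme4, Sem1 and the genes that did not pass were named after their values were seen, to describe their groups. So were the interferon-induced genes listed by the array of their highest signal. The members and all lists (assembly and regulation, ubiquitin and delivery, MHC class I loading, interferon-induced genes and markers of 6 cell types) were chosen with earlier results of these data known. Alternatives were other pseudocounts, filters, scalings, forms of time, baselines and thresholds, the mean over the probe sets of a gene, and each array left out in turn.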

Additional observations from a re-analysis of the deposited data

How the results depend on the processing

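Leaving out each array in turn gave between 1 and 2 proteasome genes that rose and between 4 and 8 that fell. Over all probe sets between 7.43% and 15.6% rose and between 7.21% and 14.5% fell in these fits. Both low counts of proteasome genes, and both low shares, came without the 72 hour array. The fitted changes of 9 called genes were recomputed under 18 alternatives and 0 changed sign. Psma7, Psmb9, Psmb10, Psmd10 and Psme2 kept their call in 18 of 18, Psmd5 in 17, Psmc3 and Psme1 in 16 and Psmb8 in 13. Over the 18 the adjusted p of Psmb8 ranged from 0.00258 to 0.206. With time as log2(hours + 1) Psmb8 and Psme1 lost their call and Psme4 passed as rising, with time as rank Psmb8 lost its call and Psme4 passed, and with 48 and 72 hours against the earlier times Psmc3 lost its call. Psmd11 passed as rising with quantile normalization, Psmd14 as falling with the mean over its probe sets and Psmb2 as falling without the 0 hour array. With the size rule set to a ratio of 1.5 and a difference of 100, 2 members were higher at 72 hours and 4 lower (Psma7, Psmb9, Psmb10 and Psme2). Taking the average of 0 and 2 hours as the baseline, 1 was higher and 3 were lower (Psmb9, Psmb10 and Psme2). With quantile normalization 2 were higher and the same 3 lower. No share over all probe sets was taken for these settings of the size rule. The change of the ratio of Psmb8 to Psmb5 was -0.59 with time as log2(hours + 1) (exact permutation, adjusted p = 0.135), and between -0.94 and -0.70 with each array left out. The cause was not tested for any of these. No paired analysis was possible because each time had 1 array. The ratio of Psmb9 to Psmb6 was not run, nor was the planned comparison of protein sequences. Signals of dim probe sets and the single array at each time limit what could be seen.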

Other observations

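Markers of the other cell types that a spinal cord culture can hold were also measured. Over all probe sets 15.0% rose and 14.1% fell in the limma fit, and 6.16% met the size threshold at 72 hours in the lower direction. Of 8 neuronal markers 3 fell in the limma fit (Gap43, Tubb3 and Nefl) and all 8 met that threshold in the lower direction. Of 6 astrocyte markers 5 were tested by limma and 0 passed (1 up and 1 down at an unadjusted p under 0.05). The summed signal of the 6 was 0.629 of the 0 hour value at 6 hours and 0.95 at 72 hours. The tested markers went different ways at 72 hours, with Gfap and Aldh1l1 at 0.622 and 0.383 of their 0 hour signals. Aqp4, Slc1a3 and S100b were at 1.22, 1.31 and 1.23. Of 5 fibroblast markers Col1a1 and Col1a2 fell, by 0.46 and 0.49, Col3a1, Dcn and Lum did not pass, with fitted changes of 0.06, 0.64 and -0.21, and the sum was 0.935 at 72 hours. Of 5 oligodendrocyte lineage markers 4 were tested and Olig1 fell, by 1.22, with a sum of 0.98 at 72 hours. That sum is weighted by the bright Pdgfra. At 72 hours Olig1 and Mbp were at 0.299 and 0.704 of their 0 hour signals, and Sox10 and Pdgfra at 1.07 and 1.12. Of 4 endothelial markers measured 1 was tested, Flt1, with a fitted change of 0.51 (adjusted p = 0.0781).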
